A study of Mus musculus with 16 samples.

Results

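The genes described here are 5 splicing factor genes, Srsf1, Srsf2, Srsf3, Srsf6 and Rbm39, whose RNAs carried coverage of the RNA-binding protein Dazl. They were chosen by name, and a region was given to a gene when it lay inside the gene's RefSeq span in the mm10 build. They are 5 of the 3203 genes with coverage, and they held 30 of the 8338 covered regions of the series. The measurement was KIN-CLIP, a form of iCLIP in which a pulsed ultraviolet laser links a protein to the RNA it touches for a chosen time, in GC-1 spg cells, a mouse line derived from spermatogonia. All groups come from a single clone that carries a doxycycline-inducible Dazl. The 12 libraries combine crosslinking for 30, 180 or 680 s, a laser power of 1 or 2.6 mW, and a Dazl level of 1x or 4.2x, with 1 library for each combination. The design thus asks how the coverage of an RNA depends on the time of crosslinking, on light and on the amount of Dazl. The 4 samples of 0 s were not analysed here, so no value below has an uncrosslinked background.

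SR proteins bind pre-mRNA through RNA recognition motifs and recruit the splicing machinery through a domain rich in arginine and serine, the RS domain. The RS domain is phosphorylated by kinases of the Srpk and Clk families, and transportin-3 (Tnpo3) carries SR proteins into the nucleus. Many SR genes also control their own output by alternative splicing of exons that lead to decay of the mRNA. Dazl is a germ cell protein that binds RNA at sites rich in GUU, mostly in 3′ untranslated regions of mRNAs, and acts on their translation and stability. Rbm39 is related to the splicing factor U2af2 and shares the RS domain of the SR proteins.

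Coverage is a score: the normalized coverage that the authors deposited per position, summed over a region or a gene. Its total over all regions ran from 11271 at 180 s, 1 mW and 1x Dazl to 252932 at 680 s, 2.6 mW and 4.2x Dazl. The 5 genes together held between 0.509% and 0.721% of the coverage of genes in each library. The lowest listed value of a region was 1, and in the weak libraries of 1 mW and 1x Dazl many regions stood at it. At 30 s there, 18 of the 30 regions of the 5 genes were at 1 (60%, against 74.0% of all regions), and at 180 s 19 were (63.3%, against 80.5%). Of 8 germ cell markers only Sall4 had a region, with a mean coverage of 1.67, and Dazl itself had none, so neither the cell type nor the Dazl levels are checked by these values. The libraries come from a clone of a cell line, not from tissue. Among markers of other testis cells, 2 of 4 Sertoli cell genes had a region (Wt1 with 12.8 and Dhh with 12.3). So did 1 of 2 endothelial genes (Kdr with 4.33), and 0 of 3 Leydig cell and 0 of 2 macrophage genes did. Why these marker genes had regions was not tested. The libraries are bulk, so fewer cells with bound RNA and less bound RNA per cell cannot be told apart, and coverage does not separate the amount of an RNA from its occupancy by Dazl.

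Srsf1 encodes the founding SR protein, which acts in both constitutive and alternative splicing. Its coverage at 30, 180 and 680 s was 27, 21 and 272 at 1 mW and 1x Dazl, and 244, 128 and 435 at 1 mW and 4.2x Dazl. At 2.6 mW it was 226, 208 and 591 with 1x Dazl and 492, 536 and 713 with 4.2x Dazl. The 680 s library was the highest of each series of 3 times, and with 1x Dazl and 1 mW the earlier times, at 27 and 21, stood far below the other 10 libraries.

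Srsf6 encodes an SR protein with a pair of RNA recognition motifs. At 1 mW its coverage at 30, 180 and 680 s was 38, 24 and 196 with 1x Dazl and 189, 128 and 374 with 4.2x Dazl. At 2.6 mW it was 235, 200 and 502 with 1x Dazl and 496, 493 and 628 with 4.2x Dazl. The order of the 4 combinations of light and protein was the same at each time, from 1 mW and 1x up to 2.6 mW and 4.2x. Srsf1 broke this order at 30 s only, where 1 mW with 4.2x Dazl (244) stood above 2.6 mW with 1x Dazl (226).

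Srsf2 encodes an SR protein long used as a marker of nuclear speckles. Its coverage at 30, 180 and 680 s was 5, 3 and 37 at 1 mW and 1x Dazl, and 10, 15 and 71 at 1 mW and 4.2x Dazl. At 2.6 mW it was 71, 53 and 87 with 1x Dazl and 106, 94 and 106 with 4.2x Dazl. At 30 s and 180 s the 4 libraries of 2.6 mW, at 53 to 106, lay apart from the 4 of 1 mW, at 3 to 15.

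Srsf3 encodes the smallest SR protein, which also takes part in the export of mRNA. Its coverage at 30, 180 and 680 s was 3, 3 and 13 at 1 mW and 1x Dazl, and 12, 13 and 33 at 1 mW and 4.2x Dazl. At 2.6 mW it was 24, 28 and 42 with 1x Dazl and 53, 47 and 53 with 4.2x Dazl. The low-light, low-Dazl values of 30 s and 180 s equal its number of regions, so each of its 3 regions was at the lowest listed value there.

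Rbm39 acts as a splicing factor and a coactivator of transcription, and is the protein that aryl sulfonamide drugs direct to degradation. Its coverage at 30, 180 and 680 s was 4, 3 and 13 at 1 mW and 1x Dazl, and 5, 6 and 31 at 1 mW and 4.2x Dazl. At 2.6 mW it was 5, 5 and 51 with 1x Dazl and 32, 25 and 59 with 4.2x Dazl. At 30 s and 180 s, more light alone or more Dazl alone left it between 5 and 6, and the libraries with both stood at 32 and 25.

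**Figure D1:**
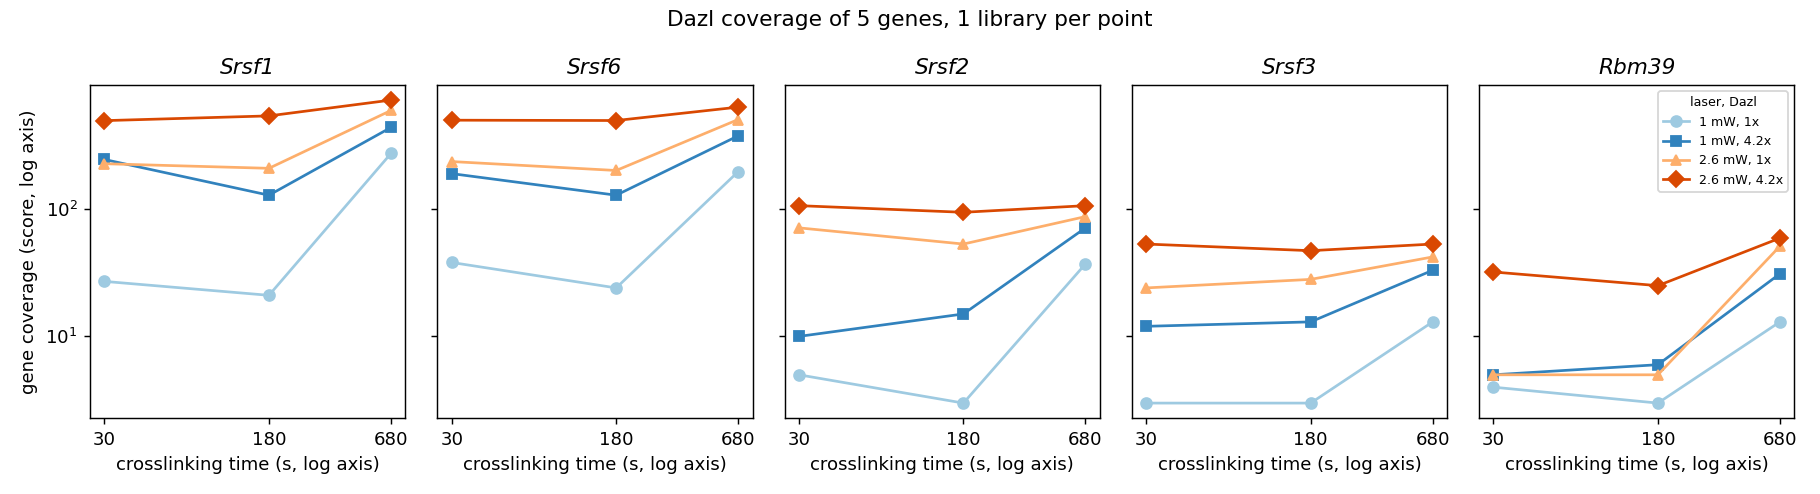
Coverage of each of the 5 genes (score, log axis) against crosslinking time (s, log axis), with 1 point per library and 1 line for each combination of laser power and Dazl level. Srsf1 and Srsf6 reach 713 and 628 at 680 s, 2.6 mW and 4.2x Dazl, where Srsf2, Srsf3 and Rbm39 reach 106, 53 and 59, and the Rbm39 lines of 1 mW with 4.2x and 2.6 mW with 1x Dazl lie on the lowest line at 30 s within 1 unit.

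By mean coverage over the 12 libraries, summed over regions whatever their length, Srsf1 (324) ranked 17th and Srsf6 (292) 25th of the 3203 genes, while Srsf2 (54.8) ranked 521st, Srsf3 (27.0) 1065th and Rbm39 (19.9) 1379th. The median gene had a mean coverage of 16.3 and the 95th percentile was 119.8. Per covered nucleotide, which sets genes of different covered length side by side, mean coverage was 1.13 in Srsf1, 1.02 in Srsf2, 0.939 in Srsf6, 0.586 in Rbm39 and 0.529 in Srsf3, against a median of 0.632 over all genes. On that scale all 5 lay under the 95th percentile of 1.17, Srsf1 closest to it. Per 1000 nt of gene span, a length that includes introns, mean coverage was 52.0 in Srsf6, 44.7 in Srsf1, 14.5 in Srsf2, 2.52 in Srsf3 and 0.604 in Rbm39, against a median of 0.533. Srsf1 and Srsf6 had 13 and 10 regions where the median gene had 2, and on their short spans that made 1.79 and 1.78 regions per 1000 nt, against a median of 0.0567.

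The Srsf1 span (gene 110809) is chr11:88046499-88053757 on the plus strand, 7259 nt long, and its 13 regions cover 286 nt. Of these, 11 formed 1 group with gaps under 500 nt that starts 2955 nt and ends 4469 nt from the 5′ end of the span. This group of 1515 nt held 90.8% of the gene's mean coverage. The other 2 regions began 1295 and 1372 nt from the 5′ end, and none of the 13 lay within 1000 nt of either end of the span. The start site given for Srsf1 lies 874 nt inside the span, and the nearest region begins 421 nt after it. The most covered regions at 680 s, 2.6 mW and 4.2x Dazl were chr11:88050830-88050868 with 120, chr11:88050150-88050171 with 116 and chr11:88049911-88049954 with 92. Exons, introns and untranslated regions were not annotated here, since the gene table used holds spans only.

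Srsf6 (gene 67996) spans chr2:162931508-162937121 on the plus strand, 5614 nt, with 10 regions over 311 nt. Its regions formed 2 groups in the 3′ part of the gene. The first holds 6 regions between 3314 and 4388 nt from the 5′ end and 72.9% of the mean coverage, including the longest regions, chr2:162935037-162935110 (74 nt) and chr2:162935148-162935208 (61 nt). The second holds 4 regions with 27.1% of the mean coverage, which end 38 to 254 nt before the 3′ end. In the 680 s, 2.6 mW, 4.2x library these 2 long regions had 154 and 174 of the gene's 628.

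Srsf2 (gene 20382) spans chr11:116849897-116853675 on the minus strand, 3779 nt. Both of its regions lie near the 3′ end, chr11:116850273-116850309 at 376 nt and chr11:116850455-116850471 at 558 nt from it. A further region, chr11:116852675-116852691, lies in the spans of both Srsf2 and the overlapping gene Mfsd11 and was left out, because the files give no strand. That region had 1, 1 and 10 at 1 mW and 1x Dazl, 5, 4 and 11 at 1 mW and 4.2x, 3, 2 and 17 at 2.6 mW and 1x, and 6, 15 and 25 at 2.6 mW and 4.2x for 30, 180 and 680 s. Srsf3 (gene 20383) spans chr17:29032660-29043372 on the plus strand, 10713 nt. It had 1 region 80 nt from its 5′ end, chr17:29032740-29032756, and 2 neighbouring regions 2751 and 2698 nt before its 3′ end, chr17:29040605-29040621 and chr17:29040658-29040674.

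Rbm39 (gene 170791) spans chr2:156147239-156180238 on the minus strand, 33000 nt, and was the longest of the 5. Its 2 regions of 17 nt, chr2:156179600-156179616 and chr2:156179516-156179532, lie 622 and 706 nt from the 5′ end, at a second start site that RefSeq places 658 nt inside the span. The first of them falls inside the promoter window of that site, from 36 to 20 bases before it, and the second begins 48 bases after it. The window is printed here because it is the one place among the 5 genes where both a covered region and its sequence were at hand. It is chr2:156179531-156179830 on the minus strand of GRCm38.p6 (mm10), from RefSeq, 5′ to 3′, with the first region in capitals. Its last 2 bases, in lower case, are the first 2 of the second region.
Rbm39: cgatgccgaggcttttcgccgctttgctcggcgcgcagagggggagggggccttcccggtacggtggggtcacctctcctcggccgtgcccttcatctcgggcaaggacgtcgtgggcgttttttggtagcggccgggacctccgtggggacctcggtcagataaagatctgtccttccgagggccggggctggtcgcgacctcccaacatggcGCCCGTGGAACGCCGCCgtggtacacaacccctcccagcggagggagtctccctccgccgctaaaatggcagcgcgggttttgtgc
The letters GTT, which stand for the core of the known Dazl motif, were searched on the gene strand. They occur 0 times in the 17 capital letters and 2 times in the 300 bases. Over the whole series, 53 regions of 17 nt lay inside a promoter window of their own gene, and 25 of them (47.2%) held GTT. Of all 32851 windows of 300 bases 94.4% did. A longer stretch holds given letters more often, so these shares of unlike length cannot be compared. The share over other stretches of 17 bases was not counted. The match is a description of letters and shows neither a site nor its absence.

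As a set, 6 of the 30 regions (20.0%) lay within 1000 nt of the 3′ end of their gene, where 37.3% of 6215 regions in genes with a known strand did. Within 1000 nt of the 5′ end of the span there were 3 of 30 (10.0%), against 6.60%. The median region of the 5 genes lay at 59.6% of the span from its 5′ end, and the median over all those regions was 93.4%. These shares are descriptions, since regions of 1 gene share its span and its RNA.

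**Figure D2:**
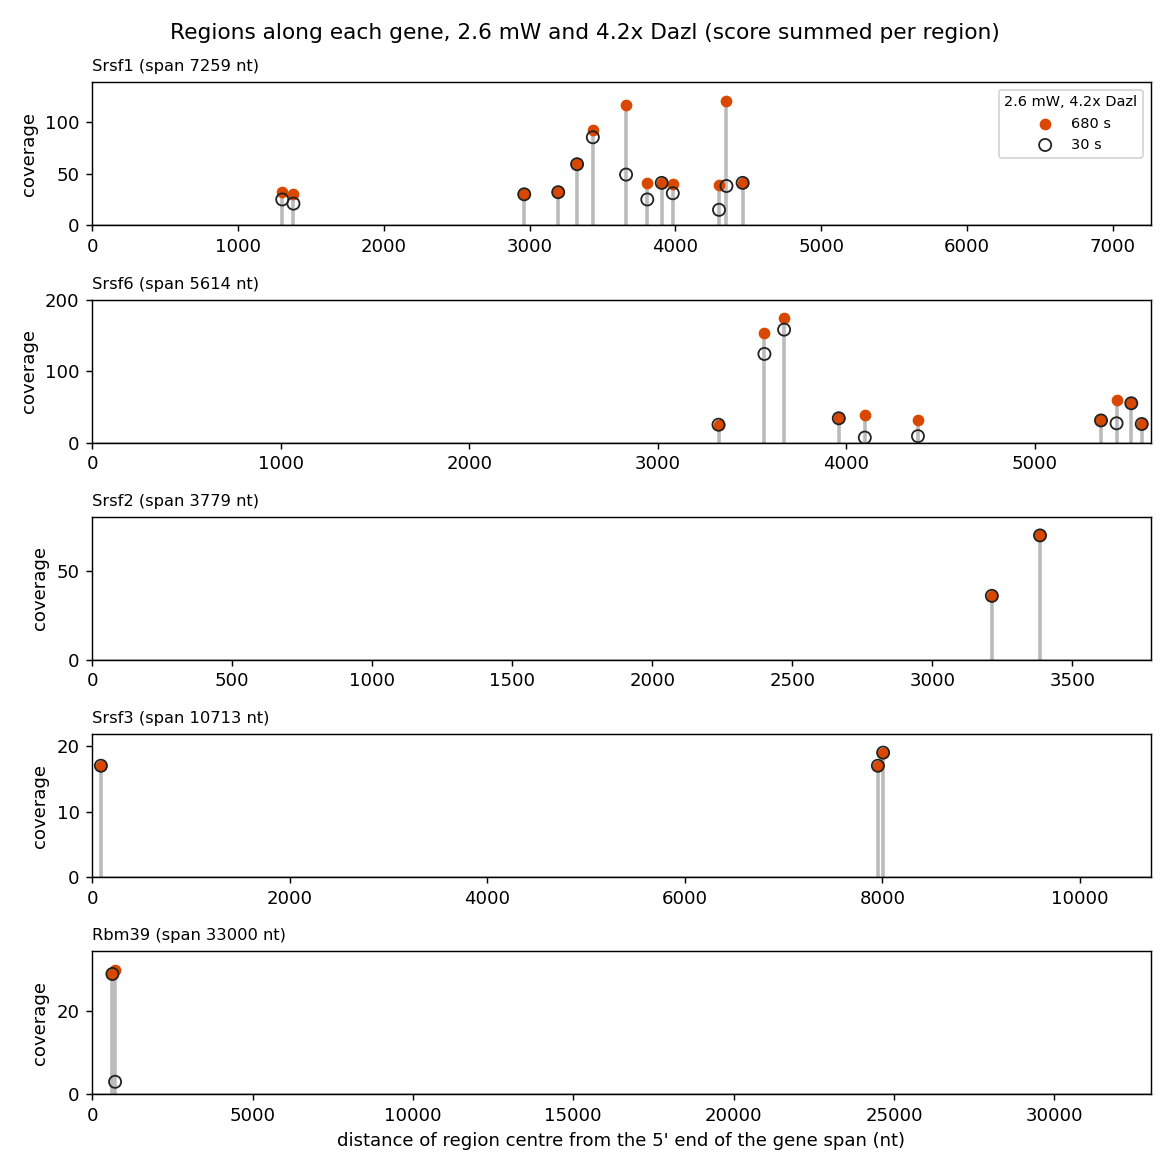
Coverage of each of the 30 regions (score) at 2.6 mW and 4.2x Dazl, at 680 s (filled points) and 30 s (open circles), against the distance of the region's centre from the 5′ end of the span (nt), with 1 panel per gene and an axis of its own for each. Srsf1 has 11 of its 13 regions between 2955 and 4469 nt, the 10 Srsf6 regions form 2 groups in its 3′ part, and both Rbm39 regions sit by the 5′ end of a 33000-nt gene.

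How coverage differs with time was measured by comparing 680 with 30 s of crosslinking. Coverage was higher at 680 s than at 30 s in each of the 5, by a log2 change on log2(coverage + 3) of 1.71 ± 0.35 (SE) in Rbm39, 1.48 ± 0.49 in Srsf1, 1.28 ± 0.40 in Srsf2, 1.17 ± 0.48 in Srsf6 and 0.85 ± 0.36 in Srsf3. In limma, fitted over 12 libraries and 3203 genes, all 5 rose, with adjusted p from 1.48e-05 (Rbm39) to 0.029 (Srsf3). Of all genes 73% did, with a median change of 1.03, so the count of 5 lies near what the background gives. For 180 against 30 s, 0 of 5 members and 0% of genes passed in limma, where 5 genes had an unadjusted p under 0.05. At 1 mW the total over all regions fell from 14910 to 11271 with 1x Dazl and from 74552 to 48334 with 4.2x. At 2.6 mW it fell from 92228 to 86071 with 1x and rose from 173943 to 185659 with 4.2x. The median change of all genes was -0.09, and 25.9% of genes lay above 0. The changes of the 5 genes lay between -0.35 (Srsf6; interval of 1.96 SE from -1.29 to 0.59) and 0.03 (Srsf3; -0.67 to 0.74). The call at 680 s rested on single libraries in 4 genes. Srsf3 and Srsf6 lost it when the library of 30 s, 1 mW, 1x was left out (adjusted p = 0.105 and 0.103 in limma), without that of 680 s, 1 mW, 1x (0.0985 and 0.119), without that of 680 s, 1 mW, 4.2x (0.132 and 0.0864) and without that of 680 s, 2.6 mW, 1x (0.0732 and 0.0879). Srsf6 also lost it without the 30 s, 2.6 mW, 4.2x library (0.0746), Srsf1 without either 1 mW, 1x library of 30 s or 680 s (0.0571 and 0.0615), and Srsf2 without that of 680 s, 1 mW, 4.2x (0.07). Without all 3 libraries of 1 mW and 1x Dazl Srsf3 lost it (0.0721), and with a slope on log2 time Srsf1 (0.0746), Srsf2 (0.0644), Srsf3 (0.138) and Srsf6 (0.138) did. Rbm39 kept its call in each of these fits.

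The genes differed in how much of their 680 s coverage was already there at 30 s. With strong light and 4.2x Dazl, Srsf2 (106 and 106) and Srsf3 (53 and 53) had all of it at 30 s. Srsf6 had 79.0%, Srsf1 69.0% and Rbm39 54.2%, and the median gene had 68.9%. At 2.6 mW and 1x Dazl the share was 81.6% in Srsf2, 57.1% in Srsf3, 46.8% in Srsf6, 38.2% in Srsf1 and 9.80% in Rbm39, with a median of 45.9%. Srsf2 was high and Rbm39 low among the 5 in both series of strong light.

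At 1 mW the order changed. With 4.2x Dazl, Srsf1 had 56.1% of its 680 s coverage at 30 s, Srsf6 50.5%, Srsf3 36.4%, Rbm39 16.1% and Srsf2 14.1%, where the median gene had 50.0%. In the 1x series the share was 30.8% in Rbm39, 23.1% in Srsf3, 19.4% in Srsf6, 13.5% in Srsf2 and 9.93% in Srsf1, with a median of 18.2%. Srsf2 thus had 14.1% with less light and more Dazl and 81.6% with more light and less Dazl, while Srsf6 had 50.5% and 46.8%. These shares carry no replicate error, and Rbm39 and Srsf3 at 1 mW and 1x Dazl rest on values of 3 and 4 at or near the lowest that can be listed. The Srsf2 share there rests on a low 30 s value of 5. So do the Rbm39 shares at 1 mW with 4.2x Dazl and at 2.6 mW with 1x Dazl.

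The 30 regions behaved in more than 1 way within a gene. At 2.6 mW and 4.2x Dazl, 16 of the 30 (53.3%) had exactly the same value at 30 and 680 s, and 0 were lower at 680 s, against 45.5% of all regions with equal values. The 180 s value lay below the 30 s value in 21 of the 30 (70%, against 38.6% of all regions). In the other 3 series 0, 1 and 0 of the 30 had equal values at 30 and 680 s, with 9.39% of all regions at 1 mW and 1x, 5.53% at 1 mW and 4.2x, and 3.79% at 2.6 mW and 1x. With so many ties the libraries of 2.6 mW and 4.2x Dazl may not be separate measurements, and p-values, which take them as such, may be too small or too large. Only 7 of the 30 regions (23.3%, against 32.2% of all regions) had less than 50% of their 680 s value at 30 s in that series.

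Of those 7 late regions, 3 lie in Srsf1. They are chr11:88050830-88050868 with 38, 74 and 120 at 30, 180 and 680 s, chr11:88050150-88050171 with 49, 66 and 116, and chr11:88050790-88050806 with 15, 28 and 39. The first and second of these are the most covered regions of Srsf1 in the 680 s library of that series, while 5 of its 13 regions had the same value at 30 and 680 s, such as chr11:88049811-88049838 with 59, 58 and 59. In Srsf6 the late regions were chr2:162935598-162935614 with 7, 19 and 38, chr2:162935880-162935896 with 9, 18 and 32, and chr2:162936926-162936957 with 27, 27 and 59. The other 7 regions of Srsf6 had at least 75% of their 680 s value at 30 s.

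The 2 regions of Rbm39, 67 nt apart, had unlike courses with strong light and 4.2x Dazl. There the one before the second start site, shown above in capitals, had 29, 23 and 29 at 30, 180 and 680 s. The one after it had 3, 2 and 30. At 2.6 mW and 1x Dazl they were closer, with 2, 4 and 22 against 3, 1 and 29, and at 1 mW they had 4, 5 and 17 against 1, 1 and 14 with 4.2x Dazl and 3, 2 and 7 against 1, 1 and 6 with 1x Dazl. The difference between 30 and 680 s in Rbm39 at 2.6 mW and 4.2x Dazl therefore lay in its second region, with 1 library for each time.

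The 2 regions of Srsf2 went together. The longer one, nearer the 3′ end, had 70, 63 and 70 at 30, 180 and 680 s in the 2.6 mW, 4.2x series and 51, 36 and 63 in the 2.6 mW, 1x series. The shorter one had 36, 31 and 36 in the former and 20, 17 and 24 in the latter. At 1 mW the longer one had 9, 12 and 45 with 4.2x Dazl and 4, 2 and 24 with 1x, and the shorter one 1, 3 and 26, and 1, 1 and 13. In Srsf3 the region by the 5′ end had a lower share of its 680 s value at 30 s than each of the 2 others in 2 of the 4 series. It had 2, 4 and 12 at 2.6 mW and 1x Dazl and 1, 1 and 10 at 1 mW and 4.2x, while the 2 others together had 22, 24 and 30, and 11, 12 and 23. It had 17, 14 and 17 at 2.6 mW and 4.2x Dazl, where they had 36, 33 and 36.

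**Figure D3:**
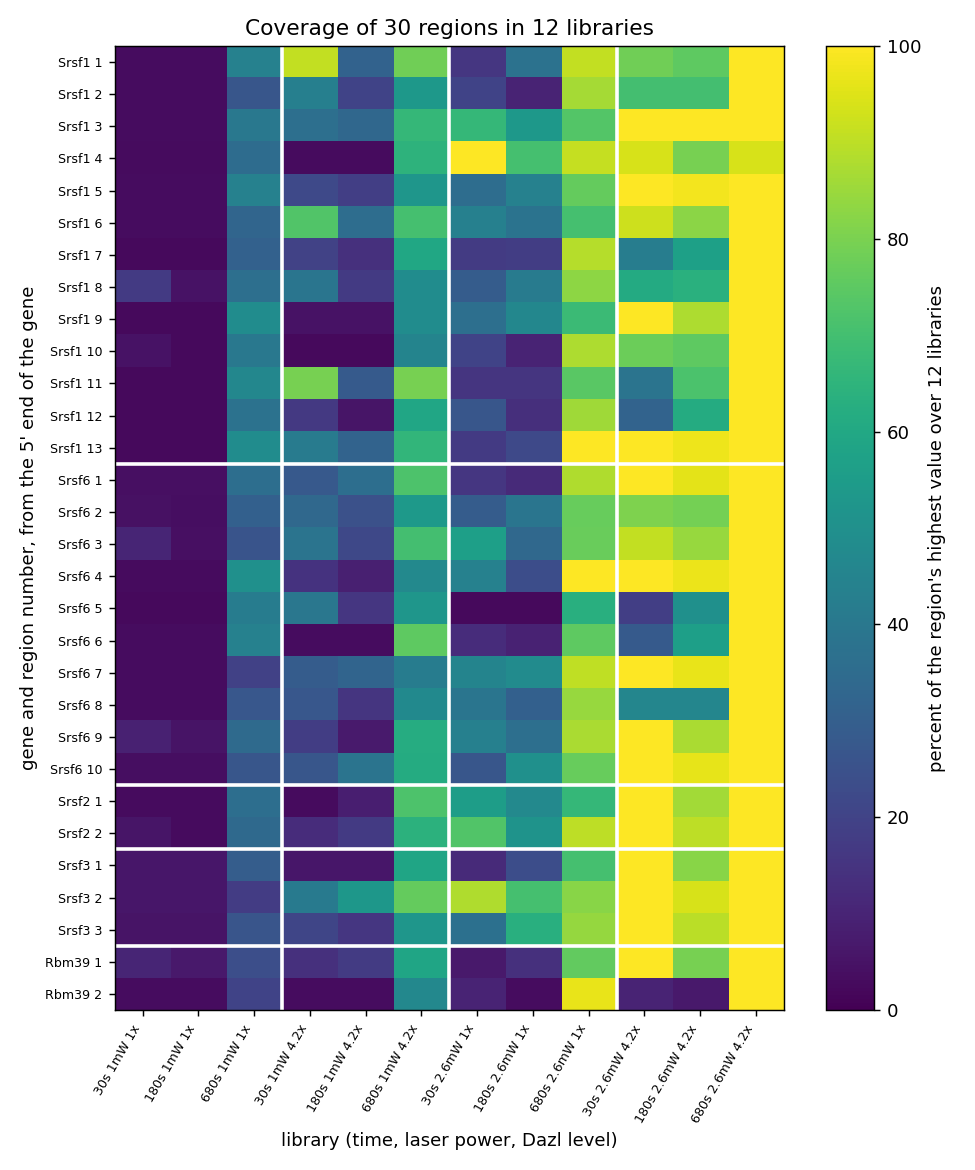
Coverage of the 30 regions, grouped by gene and in order from the 5′ end, in each of the 12 libraries as a percent of the region's highest value. Most rows are already near their full colour at 30 s with 2.6 mW and 4.2x Dazl, where 16 of 30 have exactly their 680 s value, and the 7 late rows lie in Srsf1 (3), Srsf6 (3) and Rbm39 (1).

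How coverage depends on the amount of protein was measured by setting 4.2x against 1x Dazl. Coverage was higher at 4.2x Dazl in each of the 6 pairs of libraries matched on time and laser power, for each of the 5 genes. The geometric mean ratio was 2.90 in Srsf1 (1.21 to 9.04 over the pairs), 2.63 in Srsf6 (1.25 to 5.33), 2.46 in Rbm39 (1.16 to 6.40), 2.43 in Srsf3 (1.26 to 4.33) and 1.99 in Srsf2 (1.22 to 5.00). The total over genes had 2.43 (1.24 to 4.99). An exact two-sided sign-flip test of the 6 ratios gave p = 0.0312 for each gene, the smallest that 64 flips can give. The total over genes was also higher in all 6 pairs and gave the same p, so the test does not set these genes apart. In Srsf1 the ratio was widest at 30 s and 1 mW, from 27 to 244, and narrowest at 680 s and 2.6 mW, from 591 to 713. The widest ratios of Srsf2 (from 3 to 15), Srsf3 (from 3 to 13) and Rbm39 (from 5 to 32) start at or near the lowest that can be listed, with no pseudocount.

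In limma all 5 genes rose with Dazl, by a log2 change of 1.48 ± 0.40 (SE) in Srsf1 (adjusted p = 0.00119), 1.35 ± 0.39 in Srsf6 (0.0021), 1.00 ± 0.28 in Rbm39 (0.00168), 0.99 ± 0.29 in Srsf3 (0.00238) and 0.80 ± 0.33 in Srsf2 (0.0225). Of all genes 82.4% rose, with a median of 0.88, so 5 of 5 does not set the group apart. Among all genes the Srsf1 change was higher than 95.1% and the Srsf6 change than 89.5%, and the Srsf2 change than 44.6%. With libraries scaled to equal totals these became 81.5%, 68.6% and 32%. Such ranks may partly follow coverage, since the 3 added before taking log2 shrinks the changes of genes with low coverage. The Srsf2 call was lost in limma without the library of 180 s, 1 mW, 1x (adjusted p = 0.085), of 680 s, 1 mW, 4.2x (0.137), of 680 s, 2.6 mW, 1x (0.0827), of 30 s, 2.6 mW, 4.2x (0.0658) or of 180 s, 2.6 mW, 4.2x (0.0649), and with plain eBayes (0.064). Without all 3 libraries of 1 mW and 1x Dazl, Srsf2 (0.135) and Srsf3 (0.0725) lost it, and the other 3 genes kept it.

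The comparison of 2.6 with 1 mW asks how coverage depends on light. Each of the 5 genes was higher at 2.6 mW in all 6 pairs matched on time and Dazl level, with the same smallest exact sign-flip p of 0.0312. The total over genes was too, with the same p, so here also the test does not set these genes apart. Srsf2 had the widest ratio, with a geometric mean of 6.23 (1.49 to 17.7 over the pairs), then Srsf3 with 4.28 (1.61 to 9.33), Srsf1 with 3.68 (1.64 to 9.90), Srsf6 with 3.62 (1.68 to 8.33) and Rbm39 with 2.73 (1.25 to 6.40). The total over genes had 3.48 (1.65 to 7.62). The widest Srsf2 ratio came at 180 s and 1x Dazl, from 3 to 53, and the narrowest at 680 s and 4.2x Dazl, from 71 to 106. The widest ratios of Srsf2, Srsf3 (from 3 to 28) and Rbm39 (from 5 to 32) start at or near the lowest that can be listed. No pseudocount was used, so the order of the genes by ratio depends on such low values.

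In limma all 5 genes rose with light. The log2 change was 2.28 ± 0.33 (SE) in Srsf2 (adjusted p = 2e-08), 1.82 ± 0.40 in Srsf1 (2.93e-05), 1.81 ± 0.39 in Srsf6 (2.43e-05), 1.70 ± 0.29 in Srsf3 (5.89e-07) and 1.17 ± 0.28 in Rbm39 (0.000116). Of all genes 93.4% rose, with a median of 1.22. The change of Srsf2 was higher than that of 99.8% of genes and the change of Rbm39 than that of 46.2%, and with libraries scaled to equal totals than 98.9% and 36.2%. As for Dazl, such ranks may partly follow coverage. On values as deposited these calls of all 5 genes held in each of the 21 alternatives tried, including each library left out. The size of the p depended on the fit. The adjusted p of Srsf2 in limma was 0.000381 with plain eBayes. Libraries scaled to equal totals ask another question, whether a gene moved more or less than the rest, and there it was 0.135.

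**Figure D4:**
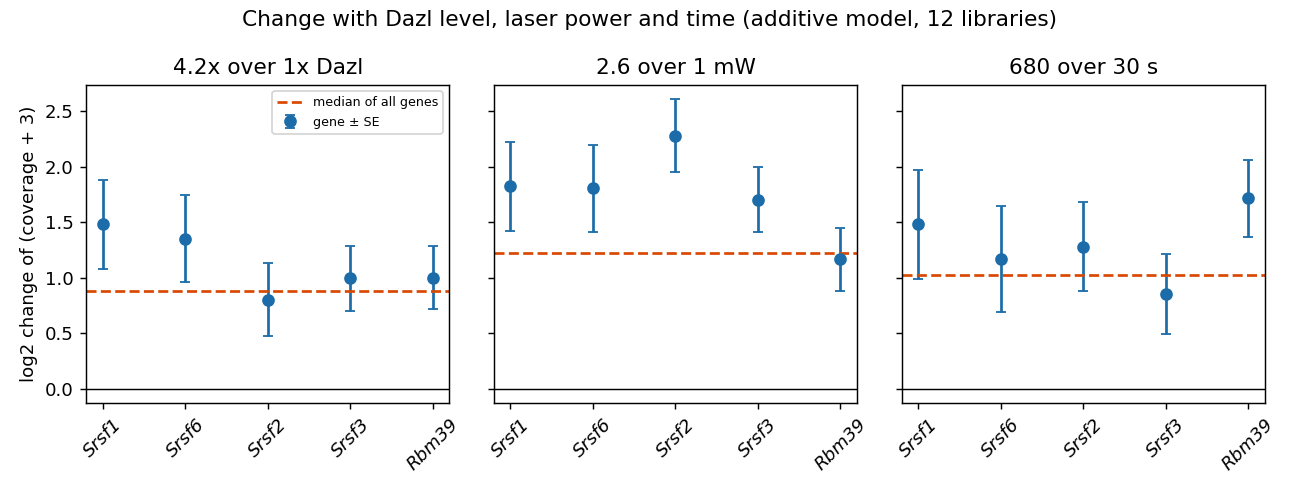
Log2 change of (coverage + 3) for each of the 5 genes on values as deposited (points, bars ± SE, limma over 12 libraries), in 1 panel each for 4.2x over 1x Dazl, 2.6 over 1 mW and 680 over 30 s, with a dashed line at the median of all genes. All points lie above 0, Srsf2 stands highest with light at 2.28 against a median of 1.22, and Rbm39 is highest with time at 1.71.

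Because nearly all genes gained coverage with Dazl, light and time, the libraries were also scaled to equal totals over genes, which asks whether a gene moved more or less than the rest. Scaling moved the median of all genes from 0.88 to -0.07 for Dazl, from 1.22 to -0.08 for light and from 1.03 to -0.0044 for time. On that scale 0 of the 5 genes passed in limma for Dazl (0% of all genes, 538 with an unadjusted p under 0.05), for light (0% of all genes, 928 with an unadjusted p under 0.05) or for time (11.3% of all genes, 831 with an unadjusted p under 0.05). The nearest was Srsf2 with light, at 0.76 ± 0.22 (SE), unadjusted p = 0.00328 and adjusted p = 0.135 in limma, above 98.9% of genes. Centred on the library median in place of the total, its change was 1.03 ± 0.26, with an adjusted p of 0.00466 in limma, where 33.7% of all genes passed. Without the 680 s libraries it was 1.16, with an adjusted p of 0.0307 on the scale of equal totals. Srsf1 with Dazl was 0.25 ± 0.11 (unadjusted p = 0.0381, adjusted p = 0.293 in limma). For Rbm39 with time the value was 0.64 ± 0.38 (adjusted p = 0.301 in limma), and 1.14 with an adjusted p of 0.0215 without the 3 libraries of 1 mW and 1x Dazl. For Srsf6 the interval of 1.96 SE reached from -0.03 to 0.25 for Dazl, from -0.08 to 0.19 for light and from -0.26 to 0.08 for time, the narrowest intervals of the 5.

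The shares themselves show this. Srsf6 held between 0.226% and 0.303% of the coverage of genes in the 12 libraries, a 1.34-fold range, and ranked 20th to 30th in each. Srsf1 held 0.192% to 0.364% (1.90-fold), lowest at 30 s and highest at 680 s with 1 mW and 1x Dazl. Srsf3 held 0.0171% to 0.0346% (2.03-fold), Rbm39 0.00576% to 0.0284% (4.93-fold) and Srsf2 0.0142% to 0.0818% (5.75-fold). Srsf2 was lowest at 30 s, 1 mW and 4.2x Dazl and highest at 30 s, 2.6 mW and 1x Dazl, a contrast of more light with less protein. Rbm39 was lowest in that last library, with a coverage of 5, and highest at 30 s, 1 mW and 1x Dazl, with a coverage of 4. Both values lie near the lowest that its 2 regions can have. The totals of these libraries were 86747 and 14079. A share near the highest, 0.0265%, came at 680 s, 2.6 mW and 1x Dazl on a coverage of 51. The range thus does not rest on the totals alone.

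**Figure D5:**
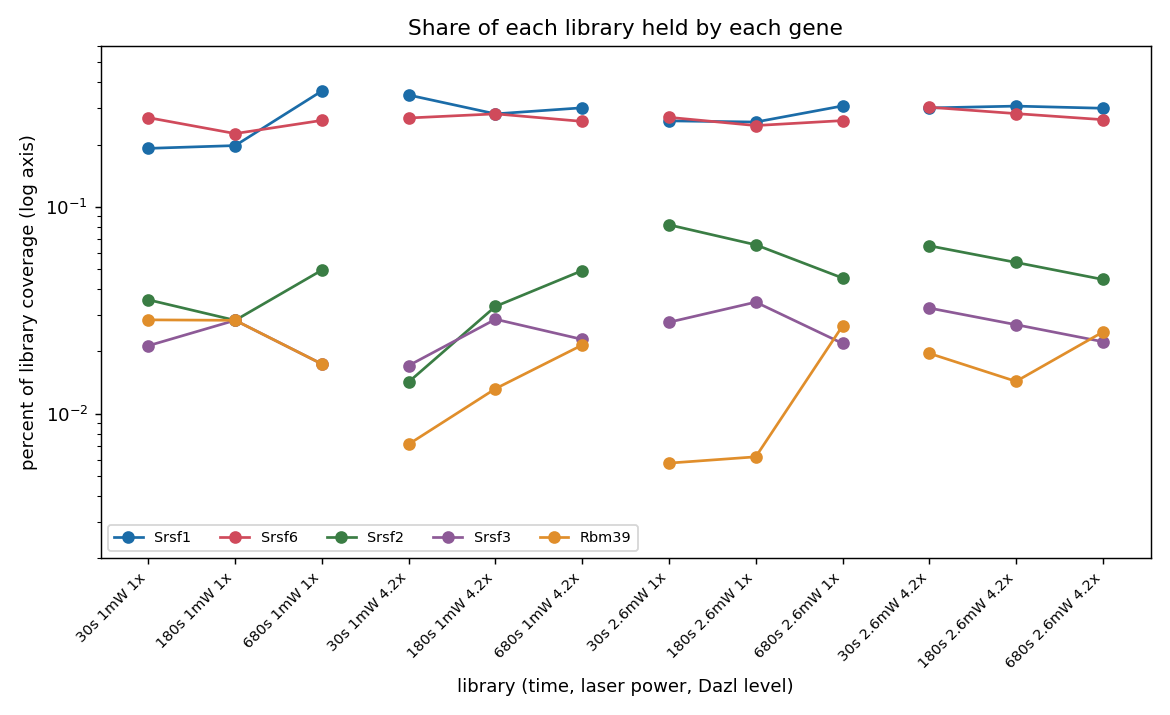
Share of each library's coverage of genes (percent, log axis) held by each of the 5 genes in the 12 libraries, with lines joining the 3 times of 1 series. Srsf6 stays between 0.226% and 0.303%, Srsf2 runs from 0.0142% to 0.0818% and Rbm39 from 0.00576% to 0.0284%. The ends of the Rbm39 range are coverages of 5 and 4, near the lowest that can be listed. At 680 s, 2.6 mW and 1x Dazl a coverage of 51 gave Rbm39 0.0265%.

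Libraries of 1 mW with 4.2x Dazl and of 2.6 mW with 1x Dazl set protein against light. Of the 30 regions, 17 were higher with more light at both 30 and 180 s (56.7%, against 44.9% of all regions) and 6 were higher with more Dazl (20.0%, against 13.6%). The 2 regions of Srsf2 and the 3 of Srsf3 were all on the side of light. Srsf1 held regions of both kinds. Its region chr11:88049687-88049703 had 1, 1 and 22 at 30, 180 and 680 s with more Dazl and 34, 24 and 31 with more light. Its region chr11:88050790-88050806 had the reverse, 31, 11 and 31 with more Dazl and 6, 6 and 29 with more light. In Srsf6, chr2:162935598-162935614 had 15, 6 and 20 with more Dazl and 1, 1 and 24 with more light. Regions of the same RNA thus had opposite orders in the same 4 libraries of 30 and 180 s, with no replicate of either.

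Whether the response to Dazl differed between the laser powers was tested as an interaction. In limma 0 of the 5 genes passed (0.0312% of all genes, 486 with an unadjusted p under 0.05), with adjusted p from 0.406 to 0.654. The 1 gene that did was Lrrc28, named after its value was seen, at -2.55 with an adjusted p of 0.0438. The estimates were -1.14 (interval of 1.96 SE from -2.55 to 0.27) in Srsf1, -0.92 (-2.32 to 0.49) in Srsf6, -0.62 (-1.70 to 0.47) in Srsf3 and -0.52 (-1.68 to 0.65) in Srsf2. Rbm39 alone had a positive estimate, 0.76 (-0.29 to 1.80). Without the 680 s, 1 mW, 1x library, Srsf1 (-1.91, adjusted p = 0.00367) and Srsf6 (-1.47, adjusted p = 0.0118) passed in limma, where 860 of the 3203 genes did. Without all 4 libraries of 680 s, Rbm39 passed in limma (1.58, adjusted p = 0.0241), with 580 genes in all.

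Of 9 further SR protein genes 5 had a region, with 1 or 2 regions each. These were Tra2b, a regulator of alternative splicing, with a mean coverage of 24.8, Srsf9 with 22.2, Srsf4 with 14.7, Tra2a with 9.50 and Srsf10 with 5.83. All 5 rose with Dazl (82.4% of all genes) and with light (93.4%) in limma, and 3 of 5 rose with time (73%). The 2 that did not pass for time were Srsf9, at 0.74 (adjusted p = 0.0597 in limma), and Tra2b, at 0.55 (adjusted p = 0.151 in limma). Medians over the 5 were 0.82 for Dazl, 1.29 for light and 0.82 for time, beside 0.88, 1.22 and 1.03 over all genes.

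Of 8 genes of SR kinases and SR import, only the importer Tnpo3 had a region. Its coverage at 30, 180 and 680 s was 2, 2 and 33 at 1 mW and 1x Dazl, 3, 3 and 75 at 1 mW and 4.2x, 14, 20 and 114 at 2.6 mW and 1x, and 15, 51 and 130 at 2.6 mW and 4.2x. It rose with light (1.87 ± 0.29 SE) and with time (3.05 ± 0.36), and for Dazl had 0.52 ± 0.29 (adjusted p = 0.09 in limma). Scaled to equal totals its change with time was 2.00 and still passed. At 2.6 mW and 4.2x Dazl it had 15 of its 130 at 30 s, where Srsf2 and Srsf3 already had their 680 s values.

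Of 24 genes of RS-domain coactivators and factors of the U1 and U2 particles and the exon junction, 9 had a region. Luc7l2, a U1-associated factor, had a mean coverage of 127.9, Scaf11 84.6, Srrm2, a large protein of nuclear speckles, 60.9, Srrm1 38.2, Rsrc2 14.1, Acin1 13.2, Arglu1 9.58, U2af2, the large U2 auxiliary factor, 9.33 and Scaf8 5.92. With light 9 of 9 rose in limma (93.4% of all genes), with time 8 of 9 (73%) and with Dazl 5 of 9 (82.4%), and 0 of 9 passed on scaled values in any of the 3 comparisons. Arglu1 was the one that did not pass for time (0.11, adjusted p = 0.746 in limma). U2af2, the relative of Rbm39, stood at 1 in the 6 libraries of 30 and 180 s other than those of 2.6 mW and 4.2x Dazl, which had 12 and 17, and at 13 to 29 at 680 s. Whether a gene has a region depends on the authors' choice of sites, so a gene without one is not shown to be unbound.

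Genes whose scaled coverage ran most like that of a member over the 12 libraries were sought among genes with a mean coverage of at least 50, by Pearson's r of log2 values. For Srsf1 they were Igfbp4 (0.98) and Ganab (0.95), for Srsf2 Slc39a7 (0.94) and Cpd (0.86), and for Srsf3 Rnft1 (0.86) and Ypel5 (0.83). For Rbm39 they were Stk35 (0.84) and Larp4 (0.83), and for Srsf6, which varied least, Ezr (0.77) and Eef1e1 (0.76). These are the highest of 574 or 575 genes, over points that share libraries and their totals, and are descriptions.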

How the data were processed

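Each of 12 libraries had 1 table of intervals with a score, which the authors deposited as normalized coverage in whole numbers from 1 to 24 per position, with no strand. The submitters' processing notes name FastQC, Bowtie2 and the mm10 build. How reads were counted, scaled and turned into sites was not given in the sources used here, so depth in reads is unknown and no counting interval is given. Intervals of any library with 10 nt or less between them were merged to regions, and width times score was summed per region and gene. Regions were given to RefSeq gene spans (GRCm38.p6) when in 1 gene, or in 1 protein-coding gene among several. Genes were tested with limma 3.58.1 in R 4.3.3 on log2(coverage + 3), with additive terms for time, laser and Dazl, moderated by eBayes (trend, robust), Benjamini-Hochberg adjustment over 3203 genes and a threshold of 0.05, two-sided. The same fit was run on libraries scaled to equal totals. Only the Dazl term of the fit on values as deposited was checked on simulated data. The simulated noise was independent between genes and of 1 size, without ties, so it does not check p-values under the shared totals and ties seen here. The fit on values as deposited has 7 residual degrees of freedom, to which eBayes added a median of 107 prior degrees from other genes. Genes of 1 library share its total, so they are not independent and these p-values may be too small. Each condition has 1 library, so p-values set a change against the scatter around the additive model, not against a spread of replicates. Comparisons share libraries and are not independent. By rule the genes named are the 5 members, every gene of the 3 SR-related lists with a region, and the 2 genes most like each member. Cell type markers with a region, Mfsd11, which overlaps Srsf2, and Lrrc28, chosen after its value was seen, are named besides. Members and lists were chosen with earlier results of these data known. Alternatives were the pseudocount, a filter on mean coverage, the joining gap, regions in 1 gene only, plain eBayes, median centring, a slope on log2 time, and leaving out libraries.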

Additional observations from a re-analysis of the deposited data

How the results depend on the processing

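No value of the 5 genes that passed its test changed direction under any alternative run. On values as deposited the calls of all 5 for laser power held in 21 of 21 alternatives. For Dazl, 2640 genes and 5 members became 1495 and 3 without the 1 mW, 1x libraries, and 2225 to 2625 genes and 4 to 5 members with 1 library left out. For time, 2339 genes and 5 members became 1224 and 1 with a slope on log2 time, and 1678 to 2627 genes and 2 to 5 members with 1 library left out. For the interaction, 1 gene became 2 with a pseudocount of 1 or a mean coverage of at least 10, and 0 with a pseudocount of 10, with regions in 1 gene only or with plain eBayes (limma; 486 at an unadjusted p under 0.05 in the fit reported). It became 580 genes and 1 member without the 680 s libraries, and 0 to 860 genes and 0 to 2 members with 1 library left out, with 860 without 680 s, 1 mW, 1x, 54 without 680 s, 2.6 mW, 1x and 43 without 680 s, 2.6 mW, 4.2x. On scaled values, genes passing for Dazl went from 0 to 62 without 680 s and 583 centred on the median (98 higher, 485 lower), and 0 to 50 with 1 library left out. For light they went from 0 to 71 genes and 1 member without 680 s, 1079 and 1 centred on the median (346 higher, 733 lower), and 0 to 33 with 1 library left out. For time they went from 362 (312 higher, 50 lower) to 191 with a mean coverage of at least 10, 791 and 1 member without the 1 mW, 1x libraries, 950 centred on the median (327 higher, 623 lower), and 119 to 476 with 1 library left out. The cause was not tested. Scaled to equal totals, the share of the 680 s coverage present at 30 s is given as the median and range of the 4 series. It was 92.5% in Srsf1 (52.8% to 115.3%), 108.6% in Srsf2 (28.9% to 180.8%) and 124.6% in Srsf3 (74.7% to 145.4%). In Srsf6 it was 103.8% (103.0% to 114.9%) and in Rbm39 56.0% (21.7% to 163.5%). The medians of Srsf2 and Rbm39 thus stand for no single series. The 30 member regions were 38 when only touching intervals were joined and 25 with a gap of 50 nt. No paired analysis was possible because each condition has 1 library, so replicate numbers cannot form a block. The 6 matched pairs of the report pair conditions, not replicates.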
